A study of Mus musculus with 20 samples.

Results

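Naive CD4 T cells were compared with naive CD8 T cells, on 2 arrays each out of the 20 arrays of the series. The arrays were chosen by their labels alone. The titles name 1 array as naive CD8 and 2 as naive CD4, and the title of the first CD8 array reads CD48+, so that array was placed by its source name, which reads CD8+. The series profiled 10 blood cell types sorted from wild-type female C57Bl/6 mice carrying CD45.1, with 2 Affymetrix Mouse430_2 arrays for each type. All the mice were 12 to 14 weeks old, each array held a pool of 4 samples, and the naive cells had received no treatment that the labels name. A second pair, the activated CD4 and activated CD8 T cells, had been treated with LPS, a component of bacterial cell walls, per their labels. Between 25000 and 50000 sorted cells gave the RNA of a sample, which was amplified by 2 rounds of in vitro transcription before labelling. Which surface proteins gated the sort is not said in the labels. Because each array is a pool, p-values reflect how far pools differ, not how far single mice differ.

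T cells leave the thymus as either CD4 or CD8 cells. CD4 cells recognise peptides on MHC class II molecules and become helper or regulatory cells. CD8 cells recognise peptides on MHC class I molecules and can become killer cells. In the thymus the choice between them rests on opposing transcription factors, with ThPOK (encoded by Zbtb7b) on the CD4 side and Runx3 on the CD8 side. Runx proteins silence the Cd4 gene in CD8 cells. A naive T cell has not yet met its antigen and divides little, and most of its signalling machinery is common to both lineages.

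Values are log2 expression levels made with GCRMA, so that a difference of 1 is 2-fold. Each gene was read from 1 probe set, and 9904 genes that exceeded a log2 value of 5 on at least 2 of the 20 arrays were tested. Below 5 a probe set lies near the background of the array, and a difference against such a group is only roughly measured. Differences are naive CD4 minus naive CD8, given with their standard error (SE) from a limma model of all 20 arrays, in which the 10 cell types share 1 estimate of the spread. A gene was called when its p-value, adjusted by Benjamini-Hochberg over all 9904 genes, was under 0.05 and the difference was at least 1 in size. With 2 arrays against 2, an exact permutation test cannot give a two-sided p below 0.333, so no gene could be tested from the 4 naive arrays alone in that way.

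Between 7703 and 7891 genes lay above 5 on each of the 4 arrays. Across the tested genes, which are not replicates of one another, the correlation was 0.970 between the CD4 arrays, 0.983 between the CD8 arrays and 0.956 to 0.969 across the lineages. The nearest array was the replicate for 4 of 4. The CD4 arrays were less alike, with 13.5% of genes more than 2-fold apart, against 6.56% between the CD8 arrays. The control probe set for the middle of the Gapdh transcript read 8.41 and 10.06 on the CD4 arrays and 9.94 and 10.02 on the CD8 arrays. On the 4 arrays the control for its 5-prime end read 3.89 to 4.45, and that for its 3-prime end 13.07 to 13.58. The part of RNA quality in the differences was not tested. The arrays numbered 1 and 2 also stood apart by a sex-linked signal. Eif2s3y, a Y-linked translation factor gene, read 12.84 and 3.23 on the CD4 arrays and 11.76 and 3.36 on the CD8 arrays. Kdm5d, a Y-linked histone demethylase gene, read 10.73 and 2.70 on the CD4 arrays and 9.30 and 2.70 on the CD8 arrays. Xist, which is transcribed from the inactive X chromosome, read 4.28 and 10.55 on the CD4 arrays and 9.88 and 10.47 on the CD8 arrays. Array 1 of each lineage thus carried Y-linked transcripts although the labels give female mice. The signal was present in 1 array of each lineage, but not at the same level. Xist was far lower on CD4 array 1 than on CD8 array 1, and Uty, also Y-linked, read 8.44 and 2.68 on the CD4 arrays and 5.19 and 2.73 on the CD8 arrays. None of the 4 sex-linked genes named here was called between the lineages.

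Of the 9904 genes, 79 were called higher in naive CD4 cells (0.798%) and 153 were called lower (1.54%), 2.34% in all. The arrays of the lineages did not overlap for any of the 232 called genes, while 41.2% of all genes tested had arrays that did not overlap. The median size was 2.35 among the genes called higher and -2.27 among those called lower, beside a median difference of -0.055 over all genes. Differences above 4-fold were seen in 51 genes on the CD4 side and 97 on the CD8 side, and above 16-fold in 13 and 15. In 40 of the 79 genes higher in CD4 cells both CD8 arrays were at or under 5, and in 57 of the 153 lower genes both CD4 arrays were. The counts lean on the spread taken from all 10 cell types. A fit of the 4 naive arrays alone called 0 genes higher and 1 lower (Cd8b1), with 422 and 795 genes at an unadjusted p under 0.05. Without both arrays that carry the Y-linked signal, 51 genes were called higher and 56 lower.

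**Figure D1:**
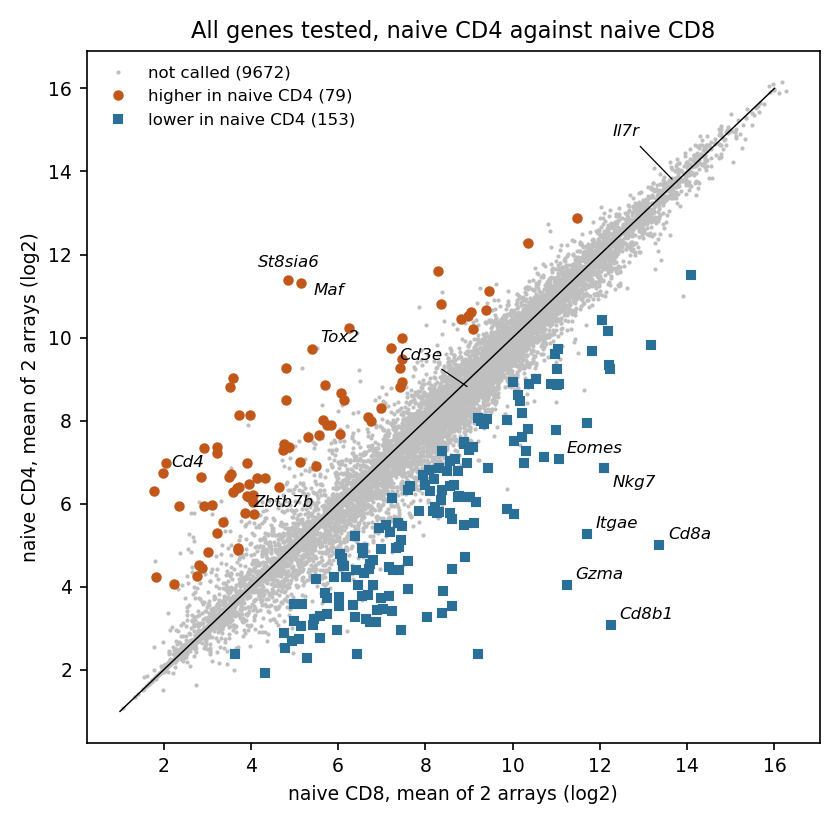
Mean log2 expression of the 2 naive CD4 arrays (vertical axis) against that of the 2 naive CD8 arrays (horizontal axis) for 9904 genes, with the line of equality. Orange circles are the 79 genes called higher in naive CD4, blue squares the 153 called lower, and Cd8b1 and Cd8a lie farthest below the line.

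The co-receptors separated the lineages as labelled. Cd8b1, the beta chain of the CD8 co-receptor, read 3.14 and 3.01 on the CD4 arrays, against 12.40 and 12.10 on the CD8 arrays. Its difference of -9.18 ± 0.26 was the largest of all genes, 578-fold lower in CD4 cells (limma adjusted p = 2.99e-10). Cd8a, the alpha chain, read 4.58 and 5.43 on the CD4 arrays, against 13.44 and 13.29 on the CD8 arrays, a difference of -8.36 ± 0.31 (limma adjusted p = 3.02e-09). All other Cd8a probe sets that passed the filter were lower in CD4 cells too. On these probe sets the CD4 arrays lay below 5 or little above it. Another Cd8a probe set read 6.48 and 6.44 on the CD4 arrays, against 14.27 and 14.34 on the CD8 arrays, so the CD4 arrays were not at background on every probe set. The CD8 array whose title reads CD48+ was as high as the other. Cd4, the co-receptor that binds MHC class II, read 6.34 and 7.13 on the CD4 arrays, against 1.97 and 1.98 on the CD8 arrays. That is a difference of 4.76 ± 0.33, or 27.1-fold (limma adjusted p = 1.67e-06). A second Cd4 probe set stayed between 3.68 and 3.78 on all 4 arrays and did not pass the filter.

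Genes shared by all T cells were not called. The CD3 chains Cd3e, Cd3d and Cd3g, which carry the signal of the T-cell receptor into the cell, had differences of -0.27, -1.17 and -0.49 (limma adjusted p = 0.833, 0.131 and 0.774). Ccr7, the receptor that guides naive cells into lymph nodes, read 9.75 and 9.99 on the CD4 arrays and 10.18 and 9.76 on the CD8 arrays. Il2ra, the interleukin 2 receptor chain of activated and regulatory cells, read 3.68 and 2.97 on the CD4 arrays and 2.46 and 2.59 on the CD8 arrays. Cd44, an adhesion receptor that is higher on memory cells, read 8.82 and 9.32 in CD4 and 8.48 and 8.28 in CD8 cells. Cd69, an early activation marker, lay between 11.20 and 11.85 on all 4 arrays. Ccr7 was thus above background and Il2ra below 5 on every naive array, and the groups overlapped for Ccr7 and Cd69.

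The CD4 helper list held the genes with the largest rises. Of its 15 tested members 7 were higher in naive CD4 cells and 0 were lower, beside 0.798% and 1.54% of all genes, and the median difference of the list was 1.25. The 7 were St8sia6, Maf, Cd4, Tox2, Cd200, Zbtb7b and Izumo1r. This list and the others were chosen with earlier results of these data known. It also holds Cd4, by which the lineage is named, so its count is no independent test. St8sia6, a sialyltransferase that adds sialic acid to sugar chains, read 11.53 and 11.26 on the CD4 arrays, against 4.39 and 5.29 on the CD8 arrays. The difference of 6.56 ± 0.60, or 94.0-fold, was the largest rise of any gene (limma adjusted p = 2.91e-05). Maf, a transcription factor of helper cells that drives interleukin 4 and 21, read 11.49 and 11.15 in CD4, against 5.74 and 4.56 in CD8 cells, a difference of 6.17 ± 0.88 (limma adjusted p = 0.00154). The arrays of the lineages lay far apart for both genes, and the 2 other St8sia6 probe sets and 3 other Maf probe sets past the filter were higher in CD4 cells as well.

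Further helper genes rose by less. Tox2, an HMG box transcription factor of follicular helper cells, read 9.52 and 9.95 on the CD4 arrays, against 5.45 and 5.35 on the CD8 arrays (4.34 ± 0.47, limma adjusted p = 1.13e-04). Cd200, a membrane protein that restrains myeloid cells, read 10.03 and 9.47 in CD4, against 6.90 and 7.53 in CD8 cells (2.54 ± 0.47, limma adjusted p = 0.0108). Izumo1r, which encodes folate receptor 4 of regulatory and anergic CD4 cells, was dim, with 4.40 and 4.49 in CD4 and 2.87 and 2.88 in CD8 cells. In each of these 3 genes both CD4 arrays lay above both CD8 arrays. Without 1 naive array the calls ended for Cd200 (0.124 without CD8 array 1) and Izumo1r (0.0983 without CD8 array 1), by limma adjusted p. The costimulatory genes Cd28 and Icos were not called. Cd28, the main second signal for naive cells, read 10.59 and 11.21 in CD4 and 9.83 and 9.50 in CD8 cells, a difference of 1.24 with a 95% interval from -0.18 to 2.65. Icos, which supports follicular help, differed by 0.83 (interval -1.33 to 2.99). Bcl6, the master factor of follicular helper cells, differed by 0.47 (interval -0.27 to 1.21).

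The 21 tested transcription factors that set or maintain the CD4 or CD8 fate had a median difference of 0. Of these 1 was called, beside 2.34% of all genes. That gene was Zbtb7b. It read 5.71 and 5.83 on the CD4 arrays, against 4.00 and 3.75 on the CD8 arrays, a 3.72-fold difference (1.90 ± 0.28, limma adjusted p = 0.00211). Runx3, its opponent, read 8.15 and 8.09 on the CD4 arrays, against 9.55 and 8.75 on the CD8 arrays. Both CD8 arrays were higher, but the difference of -1.03 ± 0.44 was not called (limma adjusted p = 0.351). Runx1, a related factor that also acts earlier in T cell development, read 11.39 and 10.85 on the CD4 arrays and 9.93 and 9.86 on the CD8 arrays (1.23 ± 0.44, limma adjusted p = 0.249). Gata3, a factor needed for CD4 development, was under 5 on every naive array. Tox, which CD4 development also requires, read 6.66 and 7.16 in CD4 and 6.63 and 7.19 in CD8 cells. Another Tox probe set past the filter read 7.05 and 6.09 in CD4, against 5.22 and 5.62 in CD8 cells, a difference of 1.15. Satb1, Bcl11b and Ets1, which organise T cell chromatin and identity, differed by 0.27, 0.60 and 1.12, with intervals from -0.34 to 0.88, -1.39 to 2.58 and -1.52 to 3.75. Runx1, Gata3 and Tox were singled out after their values were seen.

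**Figure D2:**
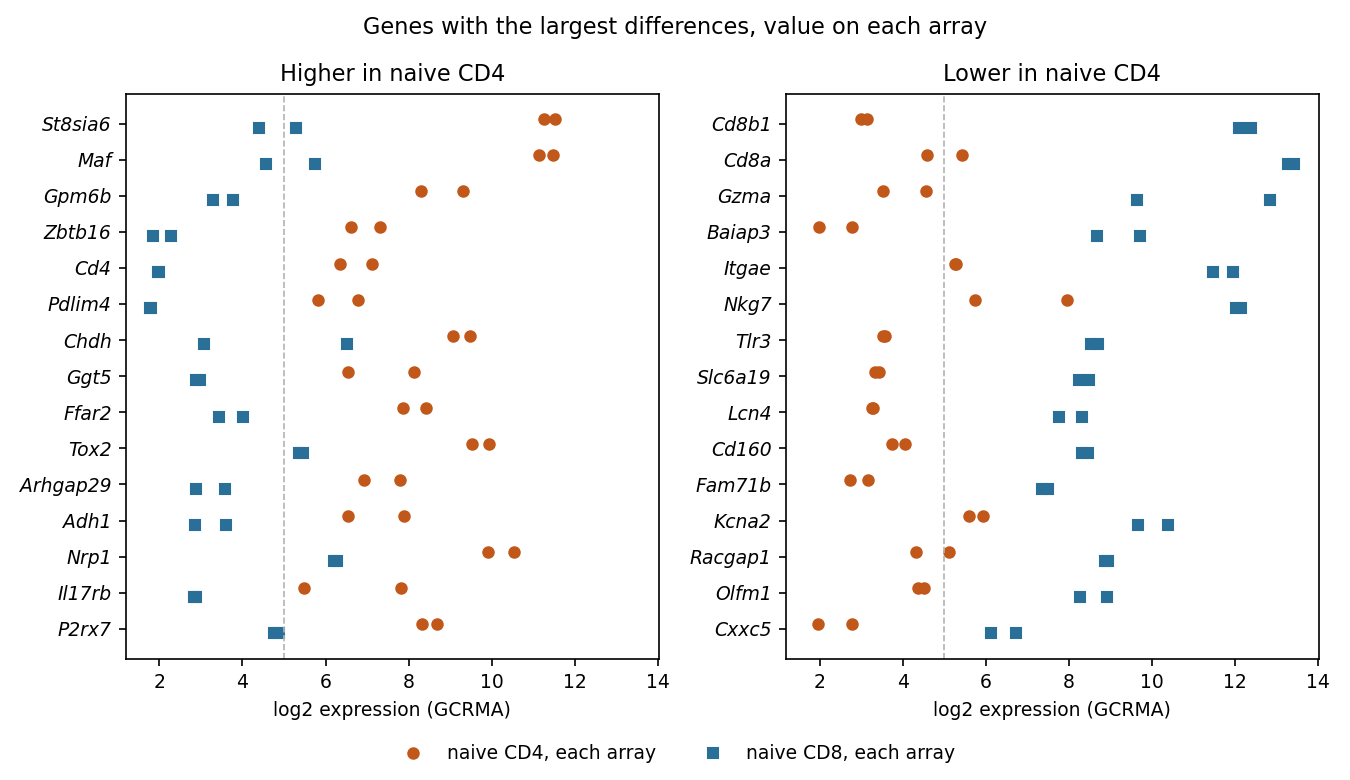
Log2 expression (horizontal axis) of the 15 genes with the largest differences on each side, with naive CD4 arrays as orange circles and naive CD8 arrays as blue squares; the dashed line marks a log2 value of 5. The arrays of the lineages do not overlap for any gene shown, and the CD8 arrays lie far apart for Gzma (12.85 and 9.64) and Chdh (3.08 and 6.51).

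Part of the cytotoxic programme was lower in naive CD4 cells. Of 19 tested members of the CD8 and cytotoxic list, 12 were lower, 1 was higher and 6 were not called, with a median difference of -2.91. Of all genes tested, 1.54% were lower and 0.798% were higher. The 12 include the CD8 chains, by which the lineage is named. The listed genes Prf1, Gzmk and Gzmm did not pass the filter. Besides the CD8 chains the 12 were Gzma, Itgae, Nkg7, Cd160, Ctsw, Eomes, Cd7, Klrd1, Crtam and Tbx21. Gzma, a granzyme of killer granules, read 4.57 and 3.52 on the CD4 arrays, against 12.85 and 9.64 on the CD8 arrays (-7.20 ± 1.13, limma adjusted p = 0.00311). Nkg7, a membrane protein of cytotoxic granules, read 5.75 and 7.95 in CD4, against 12.15 and 12.03 in CD8 cells (-5.24 ± 0.79, limma adjusted p = 0.00215). Ctsw, a cysteine protease of cytotoxic cells, read 5.66 and 6.10 in CD4, against 9.74 and 10.01 in CD8 cells (-4.00 ± 0.27, limma adjusted p = 1.40e-06). None of the CD4 arrays reached a CD8 array for these 3 genes. In a pool of sorted cells, a transcript present in fewer cells and a transcript present at less RNA per cell cannot be told apart.

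The transcription factors of killer cells followed the same direction. Eomes, the T-box factor of killer and memory CD8 cells, read 7.56 and 6.60 on the CD4 arrays, against 11.17 and 10.94 on the CD8 arrays, a difference of -3.98 ± 0.45 (limma adjusted p = 1.69e-04). Tbx21, which encodes the related factor T-bet, read 7.03 and 6.91 in CD4, against 9.53 and 8.38 in CD8 cells (-1.99 ± 0.38, limma adjusted p = 0.0118). Gzmb, the granzyme of activated killer cells, was high on a single array. It read 3.99 and 3.97 on the CD4 arrays, against 9.64 and 4.01 on the CD8 arrays, and was not called (limma adjusted p = 0.324). Ccl5, a chemokine stored by memory CD8 cells, read 10.56 and 11.42 in CD4 and 13.91 and 13.89 in CD8 cells, and its difference of -2.91 ± 1.03 was not called either (limma adjusted p = 0.230). Fasl, the death ligand of killer cells, was the single call of the list in the other direction. It read 9.30 and 8.40 on the CD4 arrays, against 6.98 and 4.41 on the CD8 arrays (3.16 ± 0.66, limma adjusted p = 0.0213). The calls depended on single naive arrays for Tbx21 (0.142 without CD8 array 1) and Fasl (0.192 without CD4 array 1), by limma adjusted p. Without CD8 array 2 the difference of Fasl was 1.87. Among the uncalled members Prdm1, which encodes the effector factor Blimp-1, differed by 1.31 ± 0.37 (limma adjusted p = 0.102) and the receptor gene Klrk1 by 0.15 ± 0.25, both under 5 on all 4 arrays.

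Windows around the starts of 5 CD8-side genes (Cd8a, Gzma, Nkg7, Cd160 and Eomes) and 2 CD4-side genes (Zbtb7b and St8sia6) are shown. Runx factors act on the choice between the lineages, and the T-box factors Eomes and T-bet act in killer cells. Cd160 and Zbtb7b have 2 starts each. Each window runs 300 bases in the direction of the gene, 250 before and 50 after its start, from RefSeq on GRCm38.p6. Capitals mark matches to a Runx motif (TGTGGT or TGCGGT) or a T-box motif (GGTGTGA) on the strand printed, or to its reverse complement. No Runx match overlaps a T-box match in these windows. On the plus strand lie Cd8a (chr6:71373177-71373476), Nkg7 (chr7:43436888-43437187) and Eomes (chr9:118477939-118478238). On the minus strand lie Gzma (chr13:113100932-113101231), Cd160 (chr3:96814472-96814771 and chr3:96829302-96829601), Zbtb7b (chr3:89387622-89387921 and chr3:89393329-89393628) and St8sia6 (chr2:13793471-13793770).
Cd8a: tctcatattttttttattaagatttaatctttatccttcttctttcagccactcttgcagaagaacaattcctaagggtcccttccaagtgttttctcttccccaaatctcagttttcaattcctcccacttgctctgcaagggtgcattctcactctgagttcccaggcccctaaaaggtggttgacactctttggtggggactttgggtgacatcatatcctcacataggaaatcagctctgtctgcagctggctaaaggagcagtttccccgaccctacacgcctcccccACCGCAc
Gzma: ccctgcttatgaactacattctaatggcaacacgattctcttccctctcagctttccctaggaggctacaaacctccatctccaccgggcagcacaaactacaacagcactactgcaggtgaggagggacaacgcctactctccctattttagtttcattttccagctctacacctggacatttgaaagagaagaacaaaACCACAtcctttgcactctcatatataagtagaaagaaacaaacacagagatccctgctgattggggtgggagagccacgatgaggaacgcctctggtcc
Nkg7: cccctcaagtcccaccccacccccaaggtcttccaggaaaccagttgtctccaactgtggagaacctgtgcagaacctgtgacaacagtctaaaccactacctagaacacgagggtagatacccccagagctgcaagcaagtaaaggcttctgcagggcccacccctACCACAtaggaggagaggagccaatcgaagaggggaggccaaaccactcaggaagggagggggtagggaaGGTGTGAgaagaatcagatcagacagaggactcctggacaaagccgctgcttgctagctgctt
Cd160, start 1: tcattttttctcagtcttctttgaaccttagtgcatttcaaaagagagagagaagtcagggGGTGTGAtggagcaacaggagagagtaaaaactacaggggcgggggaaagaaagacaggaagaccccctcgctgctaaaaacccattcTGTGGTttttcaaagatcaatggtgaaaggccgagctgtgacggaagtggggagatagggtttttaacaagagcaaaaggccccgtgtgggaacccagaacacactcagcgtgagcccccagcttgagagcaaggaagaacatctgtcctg
Cd160, start 2: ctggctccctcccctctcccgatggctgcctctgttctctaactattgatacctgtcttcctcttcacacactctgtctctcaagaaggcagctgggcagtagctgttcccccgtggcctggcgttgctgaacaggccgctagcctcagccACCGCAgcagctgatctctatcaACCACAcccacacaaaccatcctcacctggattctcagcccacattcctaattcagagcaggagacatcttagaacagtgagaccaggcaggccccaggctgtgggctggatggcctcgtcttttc
Eomes: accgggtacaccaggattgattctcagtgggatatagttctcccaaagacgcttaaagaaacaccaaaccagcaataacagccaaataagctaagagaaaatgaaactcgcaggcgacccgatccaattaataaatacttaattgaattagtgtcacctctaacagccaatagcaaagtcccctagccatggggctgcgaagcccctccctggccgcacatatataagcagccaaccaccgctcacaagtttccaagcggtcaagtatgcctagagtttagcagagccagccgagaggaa
Zbtb7b, start 1: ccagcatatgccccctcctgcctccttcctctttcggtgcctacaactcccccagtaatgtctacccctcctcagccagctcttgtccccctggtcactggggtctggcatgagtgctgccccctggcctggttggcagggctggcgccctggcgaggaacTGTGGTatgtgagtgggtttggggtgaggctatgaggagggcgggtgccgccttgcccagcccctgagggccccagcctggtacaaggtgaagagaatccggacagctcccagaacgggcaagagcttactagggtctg
Zbtb7b, start 2: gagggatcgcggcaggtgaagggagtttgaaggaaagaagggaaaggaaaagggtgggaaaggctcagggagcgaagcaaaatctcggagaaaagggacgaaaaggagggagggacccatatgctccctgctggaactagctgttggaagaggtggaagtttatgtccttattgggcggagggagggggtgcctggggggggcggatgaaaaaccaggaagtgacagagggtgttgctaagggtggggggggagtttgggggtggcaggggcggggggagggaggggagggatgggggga
St8sia6: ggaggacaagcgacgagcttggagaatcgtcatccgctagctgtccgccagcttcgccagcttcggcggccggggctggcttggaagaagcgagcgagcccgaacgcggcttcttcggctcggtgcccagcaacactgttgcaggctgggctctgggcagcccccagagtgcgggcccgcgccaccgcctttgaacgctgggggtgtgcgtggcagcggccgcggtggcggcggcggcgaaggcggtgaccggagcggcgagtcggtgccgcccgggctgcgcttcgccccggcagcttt

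Runx matches were found on both sides of the comparison. On the CD8 side 1 match lies in each window of Cd8a, Gzma and Nkg7 and in the first of Cd160, 2 lie in the second of Cd160, and none lies in that of Eomes. On the CD4 side 1 match lies in the first window of Zbtb7b, and none lies in its second or in that of St8sia6. A T-box match lies in the Nkg7 window and in the first Cd160 window. A window without a match says only that these letters are not in it. Among the called genes, windows were on hand for 126 of the 153 lower and 65 of the 79 higher genes. A Runx match was found in 31.7% of the 164 windows of lower genes, 18.4% of the 98 windows of higher genes and 21.5% of the windows of all genes tested. Across all windows of the table the share was 22.4%. The T-box motif was found in 3.05% of the lower, 4.08% of the higher and 3.24% of all tested windows, and in 3.98% of all windows. A match of a few letters is a description of the sequence and not a binding site.

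Receptors best known from NK cells were part of the CD8 side. Among 12 tested NK-type receptors, 5 were lower in naive CD4 cells (Cd160, Klrc1, Klrg1, Klrd1 and Crtam) and 0 were higher. Of all genes tested, 1.54% were lower and 0.798% were higher. Cd160, Klrd1 and Crtam were already counted in the cytotoxic list. Cd160, a receptor shared by NK cells and CD8 cells, read 3.75 and 4.06 on the CD4 arrays, against 8.32 and 8.47 on the CD8 arrays (-4.49 ± 0.32, limma adjusted p = 1.67e-06). Klrd1, which encodes CD94, was well above background in both lineages, with 11.52 and 11.51 in CD4 and 14.06 and 14.11 in CD8 cells. Klrc1, its inhibitory partner NKG2A, read 3.23 and 3.22 in CD4, against 7.25 and 6.05 in CD8 cells. Crtam, an adhesion receptor of cytotoxic cells, read 5.70 and 5.90 in CD4, against 8.26 and 8.37 in CD8 cells. Slamf7, also a receptor of killer cells, was not called at a difference of -2.01 ± 0.96, and Cd244a, the receptor 2B4, differed by 0.70 (interval -0.06 to 1.46).

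Several of these genes were much higher on CD8 array 1 than on CD8 array 2. Klrg1, a receptor of late effector cells, read 6.55 and 5.79 on the CD4 arrays, against 10.31 and 7.60 on the CD8 arrays, and its call was lost in 26 of 38 other settings (limma adjusted p = 0.0488). S1pr5, a sphingosine phosphate receptor of NK and effector cells, read 3.20 or below in CD4, against 8.11 and 5.36 in CD8 cells. Klra8, the receptor Ly49H, read 3.88 and 3.73 in CD4, against 7.19 and 6.16 in CD8 cells. Like Gzma and Gzmb, these 3 genes were highest on the CD8 array that carries the Y-linked signal, and the part of that array in their differences was not tested. The CD8 array without it was still above both CD4 arrays for Gzma, Klrg1, S1pr5 and Klra8, while Gzmb read 4.01 there. The calls of Klrg1, Klra8 and S1pr5 ended without CD8 array 1. That of Klrd1 ended whichever naive array was left out, so it did not hang on CD8 array 1 alone. Without CD8 array 1 the difference of Klrg1 was -1.43 and that of S1pr5 was -2.21. Klra8 belongs to a family of near-identical genes that 1 probe set may not keep apart. S1pr5 was singled out after its values were seen.

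Of the 22 tested memory and effector genes, 5 were lower in naive CD4 cells (Nkg7, Eomes, Klrg1, Il2rb and Tbx21), 0 were higher and 17 were not called. Of all genes tested, 1.54% were lower. Nkg7, Eomes and Tbx21 are also in the cytotoxic list, and Klrg1 is also among the NK-type receptors. Il2rb, the interleukin 2 and 15 receptor chain of memory CD8 cells, read 2.97 and 5.12 on the CD4 arrays, against 7.36 and 6.25 on the CD8 arrays (-2.76 ± 0.52, limma adjusted p = 0.0108). Cst7, which encodes cystatin F, an inhibitor of granule proteases, read 7.62 and 8.25 in CD4, against 11.79 and 11.62 in CD8 cells (-3.77 ± 0.46, limma adjusted p = 3.47e-04). It was chosen after its values were seen. Leaving out 1 naive array ended the call of Il2rb (0.136 without CD8 array 1), by limma adjusted p, and its difference was -1.69 without CD4 array 1. Other memory genes were not called. Id2, an inhibitor of E proteins, differed by -0.26 (interval -1.20 to 0.69), Lgals1, a galectin, by -1.13 (interval -2.61 to 0.35) and Ahnak, a scaffold protein of memory cells, by -1.19 (interval -2.50 to 0.12). Of 10 tested markers of NK cells, 5 were lower in naive CD4 cells, beside 1.54% of all genes. They were Gzma, Nkg7, Eomes, Il2rb and Klra8, all named above. The mean level of the 10 markers was 4.89 and 5.39 on the CD4 arrays and 7.16 and 6.98 on the CD8 arrays. The defining NK genes Ncr1, Klre1 and Klrb1a were under 5 on all 4 naive arrays, at 2.28 and 2.24 in CD4 and 2.24 and 2.26 in CD8 cells for Ncr1.

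Outside the killer genes, the CD8 side held an integrin, channels and a carrier. Itgae, the integrin chain CD103 that binds E-cadherin of epithelia, read 5.26 and 5.29 on the CD4 arrays, against 11.47 and 11.95 on the CD8 arrays, 86.5-fold lower in CD4 cells (-6.44 ± 0.62, limma adjusted p = 4.94e-05). Kcna2, a voltage-gated potassium channel, read 5.59 and 5.93 in CD4, against 9.67 and 10.40 in CD8 cells (-4.28 ± 0.29, limma adjusted p = 1.67e-06). Slc6a19, a carrier of neutral amino acids known from gut and kidney, read 3.42 and 3.33 in CD4, against 8.24 and 8.50 in CD8 cells (-5.00 ± 0.18, limma adjusted p = 2.61e-09). These CD4 arrays lay near 5 for Itgae and Kcna2 and below it for Slc6a19, and no array of 1 lineage reached the other. Of 17 tested ion channels and pumps, 3 were lower in CD4 cells (Kcna2, Kcnj8 and Atp2b4) and 1 was higher (P2rx7). Over all genes tested, 1.54% were lower and 0.798% were higher. The call of Kcnj8 was lost in 24 of 38 other settings, leaving out any 1 naive array among them. Of 18 tested nutrient carriers, Slc6a19 was the only call, while 2.34% of all genes were called either way. Slc38a2, a glutamine carrier, differed by 0.16 (interval -0.34 to 0.66) and Slc2a3, a glucose carrier, by -0.38 (interval -1.46 to 0.70).

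Other genes with large falls have roles that span several tissues. Baiap3, a protein of secretory vesicle release, read 1.99 and 2.77 on the CD4 arrays, against 8.69 and 9.72 on the CD8 arrays (-6.83 ± 0.48, limma adjusted p = 1.67e-06). Tlr3, the endosomal sensor of double-stranded RNA, read 3.57 and 3.52 in CD4, against 8.70 and 8.54 in CD8 cells (-5.08 ± 0.26, limma adjusted p = 9.77e-08). Lcn4, a lipocalin, read 3.29 and 3.27 in CD4, against 7.77 and 8.32 in CD8 cells. All 6 of these CD4 values lie in the background range, while every CD8 value is above it. Olfm1, a secreted glycoprotein of neurons, differed by -4.16 ± 0.26, Cxxc5, a zinc finger protein that binds unmethylated CpG, by -4.06 ± 0.29 and Fam71b by -4.48 ± 0.48 (limma adjusted p = 7.13e-07, 1.67e-06 and 1.07e-04). Racgap1, a regulator of cell division, differed by -4.19 ± 0.91 (limma adjusted p = 0.0263). Its call was lost in 9 of 38 other settings. Cd7, an immunoglobulin-type receptor of T and NK cells, read 2.88 and 4.56 in CD4, against 6.45 and 7.52 in CD8 cells. Cd163l1, a scavenger receptor known from gamma delta T cells, read 7.43 and 6.84 in CD4, against 11.02 and 10.41 in CD8 cells (-3.58 ± 0.26, limma adjusted p = 1.97e-06).

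Genes known from regulatory T cells moved in part with the CD4 side. Of 17 tested members of that list, 3 were higher in naive CD4 cells (Nrp1, Ctla4 and Izumo1r), 0 were lower and 14 were not called. Among all genes tested, 0.798% were higher and 1.54% were lower. Nrp1, a semaphorin co-receptor found on regulatory cells from the thymus, read 10.54 and 9.91 on the CD4 arrays, against 6.21 and 6.27 on the CD8 arrays (3.99 ± 0.70, limma adjusted p = 0.00742). Ctla4, which holds back costimulation, read 6.12 and 7.16 in CD4, against 3.84 and 3.16 in CD8 cells (3.14 ± 0.59, limma adjusted p = 0.0113). Both genes were clear of overlap, but leaving out 1 naive array ended the calls of Nrp1 (0.0725 without CD4 array 1) and Ctla4 (0.100 without CD8 array 2), by limma adjusted p. Foxp3, the factor that defines regulatory cells, did not pass the filter, with 3.05 and 4.76 on the CD4 arrays and 2.80 and 2.81 on the CD8 arrays. Ikzf2, the Helios factor of regulatory cells, differed by 0.47 (interval -1.31 to 2.24) and Nt5e, the ectoenzyme CD73, by -0.98 (interval -2.62 to 0.67).

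Receptors and signalling genes added to the CD4 side. Of 17 tested costimulatory and inhibitory receptors, 4 were higher (Ctla4, Cd200, Slamf1 and Tnfrsf25) and 1 was lower (Cd160). For this list and those below, the shares over all genes tested were 0.798% higher and 1.54% lower. Slamf1, an adhesion receptor, read 6.23 and 6.58 on the CD4 arrays, against 5.19 and 4.10 on the CD8 arrays, and Tnfrsf25, the receptor DR3, read 8.57 and 9.06, against 7.45 and 7.39. P2rx7, an ion channel opened by extracellular ATP, read 8.32 and 8.69 in CD4, against 4.87 and 4.75 in CD8 cells (3.70 ± 0.53, limma adjusted p = 0.00154). Il17rb, a receptor for interleukin 25, read 5.48 and 7.82 in CD4, against 2.84 and 2.88 in CD8 cells (3.79 ± 0.50, limma adjusted p = 8.55e-04). Il17rb was the single rise and Il2rb the single fall among 27 tested cytokines and cytokine receptors. Itgb3, an integrin beta chain, read 11.47 and 11.72 in CD4, against 8.13 and 8.47 in CD8 cells (3.30 ± 0.40, limma adjusted p = 3.90e-04). Mapk11, a p38 kinase, read 7.18 and 7.53 in CD4, against 4.90 and 4.84 in CD8 cells, and was the single call among 26 tested genes of Ras, calcium and MAP kinase control. Each gene named here as higher had both CD4 arrays above both CD8 arrays. Over all genes tested, 41.2% had arrays of the lineages that did not overlap. Cxcr4, the receptor for the chemokine CXCL12, was lower, at 6.52 and 5.79 in CD4, against 9.31 and 8.19 in CD8 cells. The calls depended on single naive arrays for Slamf1 (0.119 without CD8 array 2), Tnfrsf25 (0.112 without CD8 array 1) and Cxcr4 (0.240 without CD8 array 1), by limma adjusted p.

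Zbtb16, which encodes PLZF, the factor of innate-like T cells such as NKT cells, read 6.62 and 7.32 on the CD4 arrays, against 2.28 and 1.85 on the CD8 arrays (4.91 ± 0.51, limma adjusted p = 8.84e-05). Of the 4 tested markers of gamma delta and NKT-like cells, it was the single rise and Cd163l1 the single fall. Over all genes, 0.798% were called higher and 1.54% lower. Blk, a kinase of B and gamma delta cells, differed by 0.26, and Sox13, a factor of gamma delta cells, was under 5 on all 4 arrays. The largest rises also held genes with roles outside T cells. Pdlim4, a cytoskeletal adaptor, read 5.81 and 6.78 in CD4, against 1.78 and 1.79 in CD8 cells, and Arhgap29 read 7.79 and 6.92, against 3.58 and 2.87. Gpm6b, a membrane protein of nerve cells, differed by 5.29 ± 0.67, Chdh, an enzyme of choline breakdown, by 4.47 ± 0.72 and Adh1, an alcohol dehydrogenase, by 3.99 ± 0.72 (limma adjusted p = 5.23e-04, 0.00372 and 0.00859). Chdh read 3.08 and 6.51 on the CD8 arrays, and its difference was 2.76 without CD8 array 1. Leaving out 1 naive array ended the call of Adh1 (0.102 without CD8 array 1), by limma adjusted p.

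Some CD4-side genes are known from myeloid cells. Ggt5, an enzyme of leukotriene metabolism, read 6.54 and 8.14 on the CD4 arrays, against 2.88 and 2.97 on the CD8 arrays (4.42 ± 0.47, limma adjusted p = 9.86e-05). Ffar2, a receptor for short-chain fatty acids, read 7.86 and 8.41 in CD4, against 3.44 and 4.01 in CD8 cells (4.41 ± 0.83, limma adjusted p = 0.0114). Fgr, a Src-type kinase of myeloid cells, Clec4a2, a myeloid lectin, Gpr35, Ifitm6 and Mefv were higher by 3.18, 3.58, 2.42, 3.04 and 2.57. These 5 were chosen after their values were seen. Gpr35 was under 5 on all 4 naive arrays, at 3.81 and 4.67 in CD4 and 1.82 and 1.83 in CD8 cells, so its difference is only roughly measured. Without 1 naive array the calls ended for Ffar2 (0.109 without CD8 array 1), Clec4a2 (0.131 without CD4 array 1) and Mefv (0.0725 without CD4 array 1), by limma adjusted p. Without CD8 array 1 the difference of Mefv was 1.64. The Ggt5 difference depends on the probe set. Its others past the filter gave 2.91, and 0.69 with 5.86 and 6.09 on the CD4 arrays against 4.94 and 5.63 on the CD8 arrays, where the call was lost. Markers of myeloid cells moved with CD4 array 2. S100a8 and S100a9, abundant proteins of granulocytes and monocytes, read 3.45 and 10.75 and 3.05 and 10.68 on the CD4 arrays, against 3.32 and 6.49 and 3.12 and 3.99 on the CD8 arrays. The 10 tested granulocyte markers averaged 2.95 and 4.89 on the CD4 arrays and 2.92 and 3.45 on the CD8 arrays, with Ngp, Camp, Ltf, Mmp8, Cxcr2 and Mpo under 5 on all 4. The 10 tested monocyte markers averaged 6.48 and 7.38 on the CD4 arrays and 6.09 and 6.25 on the CD8 arrays, with Itgam and Cd14 under 5 on all 4. No member of either list was called. Adgre1, the macrophage receptor F4/80, came closest at 2.41 ± 0.62 (limma adjusted p = 0.0676). Of the listed monocyte markers, Lyz2 read 5.09 and 9.32 on the CD4 arrays, against 5.97 and 7.03 on the CD8 arrays. Ggt5, Ffar2, Fgr, Clec4a2, Gpr35, Ifitm6 and Mefv, like every gene called higher, were above both CD8 arrays on both CD4 arrays. Clec4a2 read 7.10 and 4.77 in CD4, against 2.39 and 2.33 in CD8 cells. The part of myeloid transcripts in these differences was not tested.

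Read against monocytes and granulocytes, which share no array with the naive pair, 21 of the 79 genes higher in CD4 cells (26.6%) were also higher in myeloid cells than in the other cell types outside the T lineage. The share was 17.6% of the 153 lower genes and 19.9% of all genes tested. NK cells were read in the same way. Of the 153 genes lower in naive CD4 cells, 67 (43.8%) were called higher in NK cells when these were set against the other cell types outside the T lineage. That was so for 16 of the 79 higher genes (20.3%) and for 22.6% of all genes tested. The NK count among the lower genes leaned on CD8 array 1, without which it was 28 of 89. Gzma averaged 15.61 in NK cells, Nkg7 13.44, Eomes 14.09 and Cd160 10.23, so each was higher there than in naive CD8 cells. Itgae averaged 6.32, Kcna2 4.32 and Slc6a19 3.24 in NK cells, below the naive CD8 level of each.

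**Figure D3:**
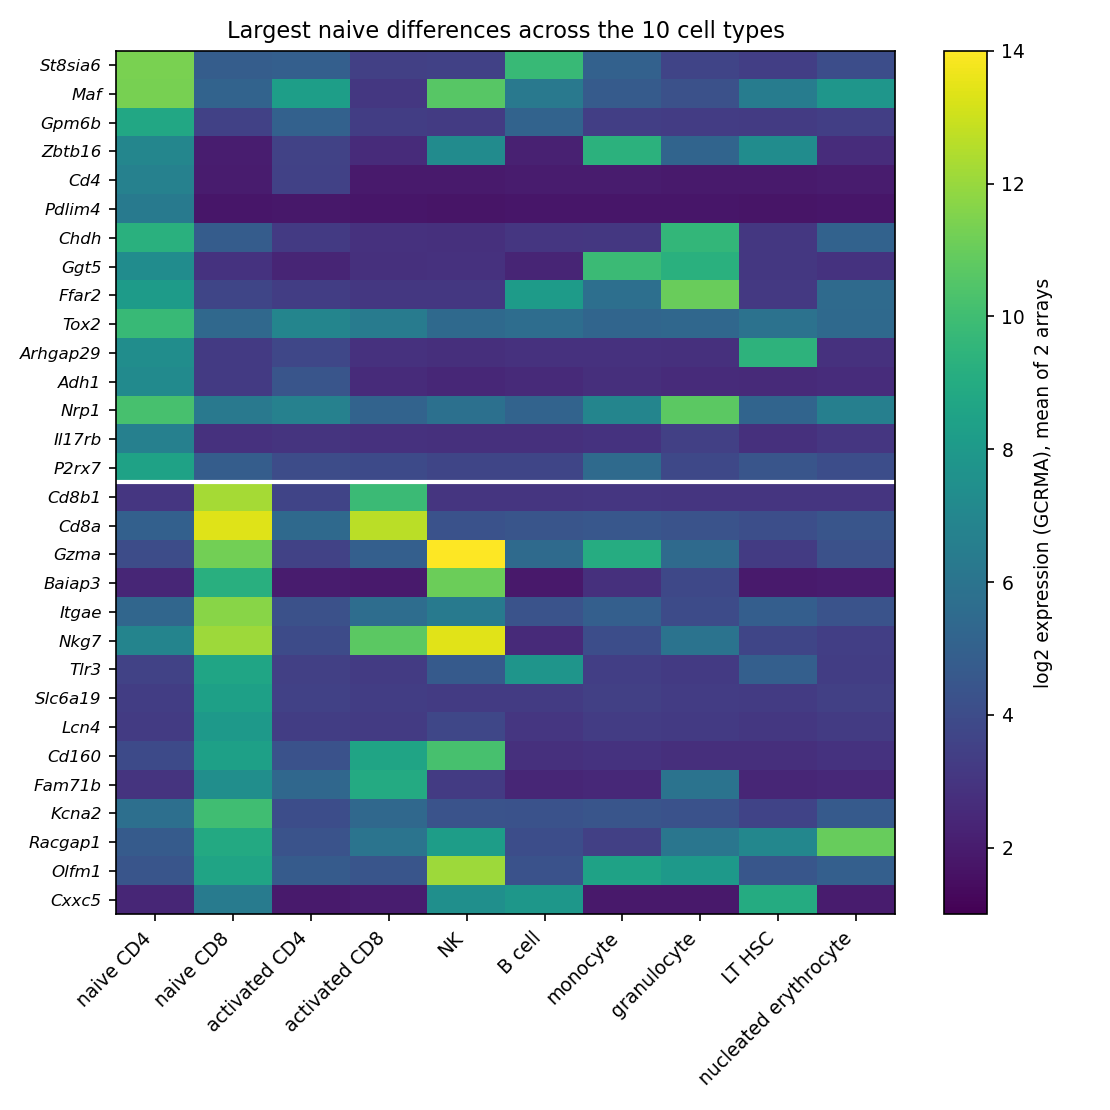
Mean log2 expression of 2 arrays (colour scale) for the 15 genes with the largest differences on each side, higher in naive CD4 above the white line and lower in naive CD4 below it, across the 10 cell types. Slc6a19 and Lcn4 lie above 5 in naive CD8 cells and not in the other 9 types, while Gzma, Nkg7, Baiap3 and Cd160 are brightest in NK cells.

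The largest genes differed in where else they were found. St8sia6 averaged 11.40 in naive CD4 cells and 9.76 in B cells, and its next highest mean was 5.02 in monocytes. Maf averaged 11.32 in naive CD4 and 10.64 in NK cells, with 8.28 in activated CD4 cells. Tox2 averaged 9.74 in naive CD4 cells, 6.94 in activated CD4 and 6.43 in activated CD8 cells, and 5.92 or less elsewhere. P2rx7 averaged 8.51 in naive CD4 cells and 5.49 or less in all other types. Slc6a19 averaged 8.37 in naive CD8 cells and 3.51 or less in the other 9 types, and Itgae averaged 11.71 in naive CD8 cells and 6.32 or less elsewhere. These levels were read on single probe sets and are compared only within a gene.

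The activated pair gave a second reading of CD4 against CD8 cells on arrays that the naive pair does not share. In the activated pair 30 genes were higher in CD4 cells (0.303%) and 117 were lower (1.18%). Of the 79 genes higher in naive CD4 cells, 6 were higher in activated CD4 cells too, which is 7.59% of the naive and 20% of the activated calls. They were Cd4, Maf, Zbtb7b, Itgb3, Tnfrsf25 and Trat1, an adaptor of the T-cell receptor. Of the 153 lower genes, 35 were lower in both pairs, 22.9% of the naive and 29.9% of the activated calls. They include Cd8a, Cd8b1, Nkg7, Cd160, Ctsw, Cst7, Crtam, Klrd1, Klrc1, Kcna2, Cd163l1 and Pde2a. No gene was called in opposite directions. The sign was shared by 67 of the 79 and 118 of the 153 genes, and the median activated differences were 0.30 and -0.70, beside -0.11 over all genes. Without naive CD8 array 1 the shared counts were 2 higher and 21 lower.

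Values in the activated pair show which differences persisted. Maf read 6.91 and 9.64 in activated CD4, against 2.86 and 3.38 in activated CD8 cells (limma adjusted p = 0.00793). Zbtb7b read 5.46 and 5.68 in activated CD4, against 3.64 and 3.64 in activated CD8 cells, a difference of 1.93 beside 1.90 in the naive pair. Gzmb, not called in the naive pair, was 7.03 and 7.51 in activated CD4, against 13.01 and 13.99 in activated CD8 cells (limma adjusted p = 0.0129). Eomes, clearly lower in naive CD4 cells, read 9.67 and 11.30 in activated CD4 and 11.56 and 11.75 in activated CD8 cells and was not called there (limma adjusted p = 0.344). Tbx21 read 10.74 and 11.22 in activated CD4 and 10.29 and 10.98 in activated CD8 cells, with overlap.

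**Figure D4:**
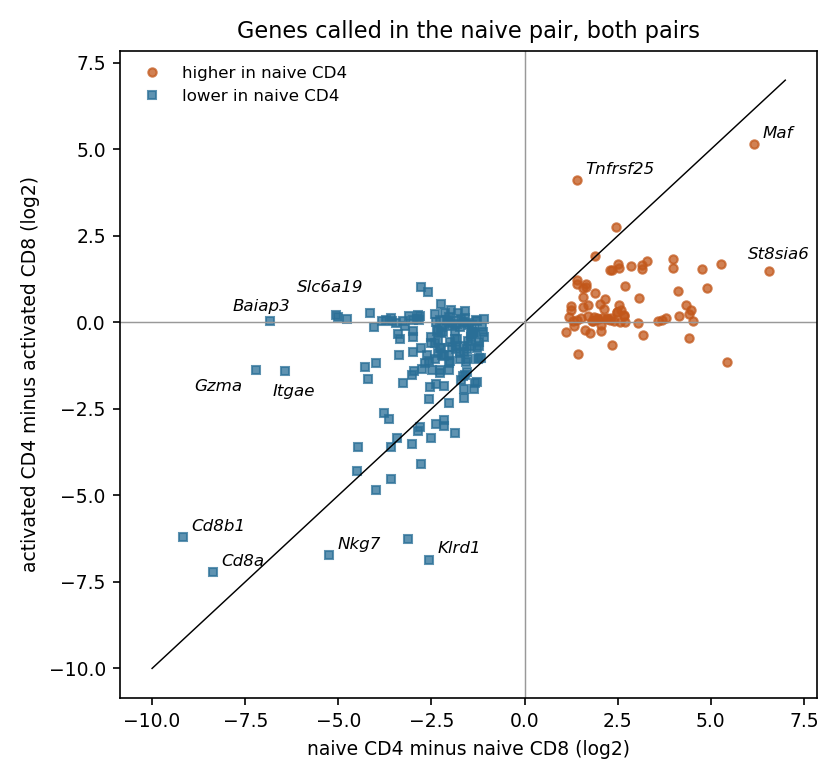
Difference of activated CD4 minus activated CD8 (vertical axis, log2) against naive CD4 minus naive CD8 (horizontal axis, log2) for the 232 genes called in the naive pair, with the line of equality. Cd8a, Cd8b1, Nkg7 and Maf keep large differences in both pairs, while Baiap3, Slc6a19, Itgae and St8sia6 lie near 0 or far from the line in the activated pair.

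The difference between the pairs was tested directly. The naive difference minus the activated difference was called for 72 of the 9904 genes (0.727%), 36 in each direction. Among the 79 genes higher in naive CD4 cells, 18 had a significantly larger rise in the naive pair and 1, Tnfrsf25, a larger rise in the activated pair. Among the 153 lower genes, 29 had a significantly larger fall in the naive pair and 1, Klrd1, a larger fall in the activated pair. St8sia6 fell to 5.84 and 4.02 in activated CD4 cells, with 3.53 and 3.37 in activated CD8 cells, and its naive difference exceeded its activated one by 5.08 ± 0.85 (limma adjusted p = 0.0120). Itgae read 4.76 and 3.73 in activated CD4 and 6.57 and 4.73 in activated CD8 cells, so that its values came close to each other (-5.03 ± 0.88, limma adjusted p = 0.0159). Slc6a19 was at 3.51 or below on all 4 activated arrays (-5.14 ± 0.25, limma adjusted p = 3.00e-07). Ccl4, an inflammatory chemokine, and Tspan4, a tetraspanin, ran the other way, with naive arrays all under 5 and activated CD8 values of 7.92 and 8.47 and of 7.73 and 7.56. The activated arrays also differ from the naive arrays in treatment and in the Y-linked signal, which all 4 carry, and these cannot be told apart for the arrays numbered 2.

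The shared T cell programmes showed no calls. Of 24 tested genes of the T-cell receptor complex and its first signalling steps 0 were called, and the differences ran from -1.26 to 1.09. Ptprc, the phosphatase CD45, differed by 0.07 (interval -0.68 to 0.82), Plcg1, a phospholipase, by 0.35 (interval -0.37 to 1.07) and Prkcq, a protein kinase of the immune synapse, by -0.41 (interval -1.23 to 0.41). Of 19 tested genes of the naive state and quiescence 0 were called, between -1.36 and 0.87. Il7r, the survival receptor of naive cells, read 13.69 and 13.80 in CD4 and 13.59 and 13.85 in CD8 cells, with overlap. Klf3 and Btg1, which restrain growth, differed by 0.20 and 0.35. These values hold for the brightest probe set of each gene. Dimmer ones past the filter gave 1.145 for Il7r, -1.865, -0.585 and -0.675 for Klf3, and 0.20 and 1.585 for Btg1. Among 8 GIMAP GTPases, survival proteins of lymphocytes, 0 were called, between -0.81 and 0.62. The 20 tested type I interferon response genes (-1.40 to 0.92), the 19 immediate early genes (-2.41 to 1.13) and the 23 replication and mitosis genes (-1.07 to 0.78) also held 0 calls. Over all genes the median SE was 0.38, so a typical 95% interval reached 0.82 to either side and a 2-fold difference could be missed.

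Further lists gave few calls, where 0.798% of all genes were called higher and 1.54% lower. Among 14 tested Bcl2 family and death receptor genes Fasl was the single call, and Mcl1, which keeps naive cells alive, differed by 0.15 (interval -0.29 to 0.59). Among 16 tested genes of lipid signalling and glycosylation, St8sia6 was higher in CD4 cells and B4galnt1 and Pde2a were lower. Pde2a, a phosphodiesterase that breaks down cyclic nucleotides, read 10.00 and 10.33 on the CD4 arrays, against 11.99 and 12.40 on the CD8 arrays (-2.03 ± 0.41, limma adjusted p = 0.0163). The calls depended on single naive arrays for B4galnt1 (0.293 without CD4 array 1) and Pde2a (0.131 without CD4 array 1), by limma adjusted p. St6gal1 and St8sia4, other sialyltransferases, differed by 0.59 (interval -0.76 to 1.94) and 0.54 (interval -0.12 to 1.19). Among 25 tested chemokine receptors, integrins and sphingosine phosphate receptors, Itgb3 was higher and Itgae and Cxcr4 were lower. Ccr9, the gut homing receptor, read 10.75 and 10.72 in CD4 and 11.70 and 11.82 in CD8 cells and was not called (-1.03 ± 0.44, limma adjusted p = 0.355).

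**Figure D5:**
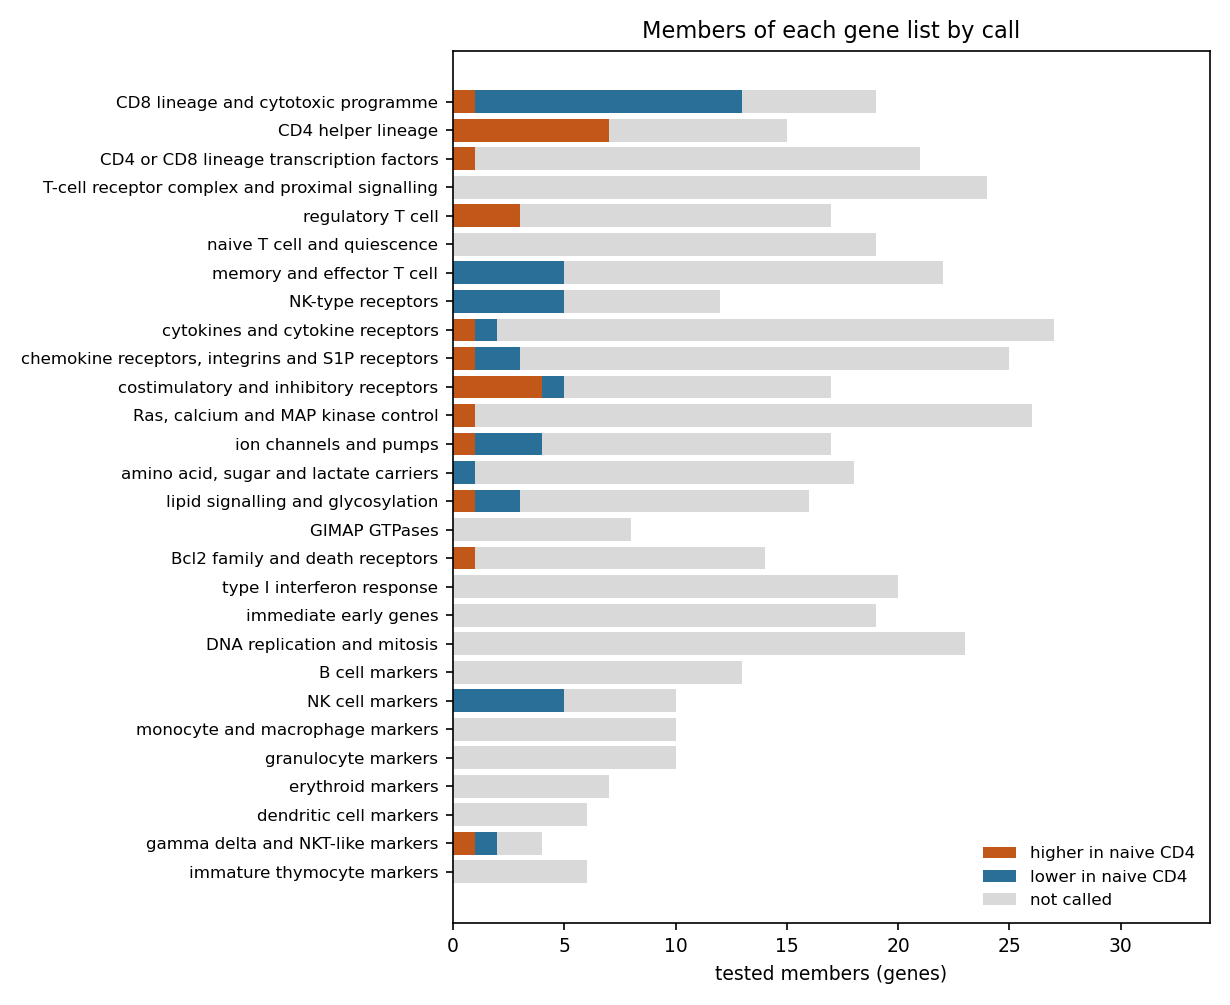
Number of tested members (horizontal axis, genes) of 28 gene lists, split into called higher in naive CD4 (orange), called lower in naive CD4 (blue) and not called (grey). The CD8 and cytotoxic list holds 12 of 19 lower and the CD4 helper list 7 of 15 higher, while 12 lists hold no call.

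Markers of other blood cells were read on the naive arrays as well. Of 13 tested B cell markers 0 were called, with a mean level of 6.86 and 6.88 on the CD4 arrays and 7.08 and 7.43 on the CD8 arrays, and Cd79a, Cr2 and Fcmr under 5 on all 4. H2-Aa, a chain of MHC class II, nevertheless read 12.55 and 13.40 in CD4 and 12.62 and 13.26 in CD8 cells, while B cells averaged 14.73. Ms4a1, which encodes CD20, read 8.32 and 7.16 in CD4 and 8.58 and 8.07 in CD8 cells, against a B cell mean of 15.22. The arrays of the lineages overlapped for both genes. Cd79b, a chain of the B-cell receptor, had the widest difference of the list, with 6.45 and 4.84 in CD4 and 8.55 and 8.56 in CD8 cells. Its arrays did not overlap, and it was not called (-2.91 ± 0.88, limma adjusted p = 0.139). Of 7 erythroid, 6 dendritic cell and 6 immature thymocyte markers 0 were called. Dntt, the terminal transferase of developing lymphocytes, was higher on both CD4 arrays and was not called (0.96 ± 0.39, limma adjusted p = 0.329).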

How the data were processed

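Affymetrix Mouse430_2 arrays measured 10 sorted mouse cell types. The deposited values are log2 expression levels that the authors made with GCRMA, per the submitters' processing notes. GCRMA corrects background, normalizes between arrays and summarises probes. Neither its version nor a joint processing of the arrays is stated. No further normalization was applied. The labels gave the groups.

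Of 45101 probe sets, 34945 had 1 gene symbol in the platform annotation, 932 had several, 9160 were not listed and 64 were controls. Symbols of 34741 were taken through the Entrez identifier. Probe sets above 5 on at least 2 of 20 arrays were kept, and the kept one of highest mean stood for its gene. Of 18193 genes, 9904 were tested and 8289 left out. limma 3.58.1 in R 4.3.3 fitted 1 mean per cell type (lmFit, eBayes, 10 residual and 3.02 prior degrees of freedom). NK cells were set against the mean of LT-HSC, B cells, monocytes, granulocytes and erythrocytes. Monocytes and granulocytes were set against LT-HSC, NK, B cells and erythrocytes, which was added after calls had been seen.

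On simulated data of 9904 genes, with 50 changed at each size, the naive contrast recovered 14%, 68%, 84% and 96% of log2 differences of 1, 2, 3 and 4, with 10 false calls.

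Genes are named by a rule that takes the 15 largest differences a side, all called list members, up to 4 uncalled ones of highest level per list, label checks, defining markers and the 5 largest differences between pairs a side. Only some of the uncalled genes that the rule takes are named in the text. Runx1, Gata3, Tox, Prdm1, Klrk1, Cd79b, Adgre1, Dntt, S1pr5, Cst7, the sex-linked genes, 5 genes known from myeloid cells and those of the closing observations were chosen after their values were seen. Unnamed transcripts and receptor segments were passed over. The comparison and the 29 lists were chosen with earlier results of these data known. The lists overlap, so a gene can count in several of them. Alternatives changed the probe set, filter, normalization, arrays, weights, block and threshold. The promoter windows are RefSeq's, on GRCm38.p6, with starts not tied to these cells. The number of arrays limits the precision.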

Additional observations from a re-analysis of the deposited data

Results flagged for a closer look

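The difference between naive CD4 and naive CD8 cells was set against that between activated CD4 and activated CD8 cells, and the interaction of the same limma model was called for 72 genes. At an unadjusted p under 0.05 there were 613. The value given for each gene below is the naive difference minus the activated difference, on the log2 scale. With groups of 2 arrays, single arrays could not be tested as outliers.

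Rises that were larger in the naive pair were found for St8sia6 (5.08), Ggt5 (4.86), Pdlim4 (4.48), Zbtb16 (3.93), Tox2 (3.83), Il17rb (3.67), P2rx7 (3.62), Fgr (3.54), Cd4 (3.23), Arhgap29 (3.22), Ifitm6 (3.06), Gpr35 (2.37) and Mapk11 (2.20). For Cd4 the activated difference was still called, at 1.53, with 4.11 and 2.87 in activated CD4 and 1.96 and 1.96 in activated CD8 cells. Pdlim4 read 1.82 or below on all 4 activated arrays. Gpr35 was under 5 on every naive and activated array.

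Falls that were larger in the naive pair were found for Baiap3 (-6.86), Tlr3 (-5.28), Slc6a19 (-5.14), Itgae (-5.03), Lcn4 (-4.87), Olfm1 (-4.44), Cxxc5 (-3.94), Cd7 (-3.30), Cd8b1 (-2.98), Kcna2 (-2.98) and Atp2b4 (-2.02). Cd8b1 and Kcna2 were also called lower in activated CD4 cells, at -6.20 and -1.30. Baiap3, Tlr3, Lcn4 and Cd7 were under 5 on all 4 activated arrays.

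Larger differences in the activated pair were found for Ccl4 (5.40), Tspan4 (5.22), Klrd1 (4.29) and Tnfrsf25 (-2.72). Klrd1 read 3.18 and 4.52 in activated CD4, against 11.54 and 9.87 in activated CD8 cells, where the naive values were 11.52 and 11.51 in CD4 and 14.06 and 14.11 in CD8 cells. Tnfrsf25 read 7.28 and 7.59 in activated CD4, against 3.80 and 2.84 in activated CD8 cells.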

How the results depend on the processing

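The counts of genes higher and lower in naive CD4 cells (79 and 153) depended most on the arrays in the fit. They were 0 and 1 in a fit of the 4 naive arrays, which has 2 residual degrees of freedom, and 29 and 60 in a fit of the 8 T cell arrays. Leaving out 1 array at a time gave 36 to 93 higher and 75 to 282 lower genes. The lowest higher count came without naive CD8 array 1 (36 and 89), and the lower count was 75 without naive CD4 array 1 and 282 without naive CD4 array 2, where the lone array is assumed to vary like the other groups. Without both arrays numbered 1, which carry the Y-linked signal, there were 51 and 56, of which 32 and 47 were among the 79 and 153. Quantile normalization gave 92 and 125, with 42.4% of the calls higher where 34.1% were higher without it. Without a filter on dim probe sets Cd4 was read from its other probe set, at -0.02.

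The genes that differ between the pairs numbered 72, and 47 with a filter on the 4 naive arrays, 45 with a filter at 7, 22 with the 8 T cell arrays and 56 to 98 without single arrays. Shared higher genes (6) numbered 3 with a filter at 7, 2 with the 8 T cell arrays, 3 without both arrays numbered 2 and 2 to 9 without single arrays. Shared lower genes (35) numbered 13 with the 8 T cell arrays, 13 without both arrays numbered 1 and 19 to 35 without single arrays. Genes also higher in NK cells numbered 67 among the lower and 16 among the higher genes. Without both arrays numbered 1 they were 19 and 6, and without single arrays 28 to 94 and 6 to 20. Genes also higher in monocytes and granulocytes, counted after the data were seen, numbered 27 among the lower and 21 among the higher genes. Without both arrays numbered 1 the lower count was 9, and without single arrays the counts were 14 to 66 and 10 to 27.

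The naive arrays share numbers, and the deviations of same-numbered arrays from their group means correlated at 0.125, over 2 pairs, so the numbers were not taken as pairing. With the number as a replicate block of the naive arrays in the fit of 20, the counts were 82 and 165, and with a block of all arrays 71 and 137. In the 4 naive arrays alone the block gave 0 and 0, with 365 and 728 genes at an unadjusted p under 0.05. Of the 71 called genes named here, 41 kept their call whichever naive array was left out. Apart from fits of the 4 naive arrays, 22 of the 71 called genes named here kept their call under every setting, and 10 of the 71 genes not called gained one somewhere. The cause of these shifts was not tested.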

Other observations

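Further genes outside the lists were read after the calls had been seen. Tnfsf11, which encodes the cytokine RANKL, read 6.52 and 5.42 on the naive CD4 arrays, against 3.11 and 3.12 on the naive CD8 arrays (2.86 ± 0.63, limma adjusted p = 0.0278). Epas1, an oxygen-sensing transcription factor, read 8.76 and 8.56 in CD4, against 6.46 and 5.69 in CD8 cells (2.59 ± 0.43, limma adjusted p = 0.00444). Trat1, the receptor adaptor named above, read 11.01 and 10.62 in CD4, against 8.12 and 8.58 in CD8 cells. In these 3 genes the arrays of the lineages did not overlap. Leaving out 1 naive array ended the calls of Tnfsf11 (0.252 without CD4 array 1), Epas1 (0.0564 without CD8 array 2) and Trat1 (0.0529 without CD8 array 1), by limma adjusted p.

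Some further genes lower in naive CD4 cells encode protease inhibitors. Serpinb9, an inhibitor of granzyme B, read 5.63 and 7.21 in naive CD4, against 8.94 and 8.18 in naive CD8 cells (-2.14 ± 0.52, limma adjusted p = 0.0487). Cst3, which encodes cystatin C, read 7.43 and 8.13 in CD4, against 10.90 and 11.10 in CD8 cells (-3.22 ± 0.54, limma adjusted p = 0.00523). Ctla2a and Ctla2b, cathepsin inhibitor-like genes so alike that their probe sets may share transcripts, differed by -2.15 and -2.78 (limma adjusted p = 0.00112 and 0.00965). Lgals3, a galectin, and Hopx, a homeodomain protein of effector cells, were lower by -2.87 and -2.03 (limma adjusted p = 0.00472 and 0.00836). Leaving out 1 naive array ended the calls of Serpinb9 (0.429 without CD4 array 1), Cst3 (0.0622 without CD4 array 1), Ctla2b (0.0780 without CD8 array 2), Lgals3 (0.0622 without CD4 array 1) and Hopx (0.104 without CD8 array 1), by limma adjusted p. Serpinb9 lost its call in 26 of 38 other settings, and its difference was -1.35 without CD4 array 1. That of Ctla2b was -1.83 without CD4 array 2. No test of these genes as a group was run.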
